A study of Mus musculus with 10 samples.

Results

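The genes described here encode the proteasome, the protease complex that degrades proteins tagged with ubiquitin, together with its activators, assembly chaperones and the few genes that share its naming. They were chosen by symbol, as all genes whose name begins with Psma to Psmg followed by a digit, and each was represented by its brightest probe set naming 1 gene. The rule found 49 genes among 18193 measured, of which 48 were bright enough to be tested. RNA came from LSK/CD48- bone marrow cells, sorted as positive for Sca-1 and Kit and without lineage markers or CD48, a gate rich in haematopoietic stem cells. The comparison is between cells that lost Mll, the histone methyltransferase now named Kmt2a, and cells that kept it.

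The Mll-deficient group held 5 mice of genotype Mx1-cre;Mll F/F, in which the interferon-inducible Mx1 promoter drives cre and cre deletes the floxed Mll alleles. The control group held 5 mice of genotype Mll F/F without cre. The mice were 8-week-old females, with B6.SJL-Ptprca Pep3b/BoyJ as the background strain. Both groups received the interferon inducer pI:pC as 3 injections 48 hours apart at 10 µg per gram of mouse plus 50 µg, and cells were taken on day 6. Between 1500 and 10000 cells per mouse gave 1 Affymetrix Mouse Genome 430 2.0 array. Since every mouse received the interferon inducer and the controls lacked cre, neither the response to interferon nor an effect of cre can be read from this comparison.

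The proteasome is built from a barrel-shaped core particle of alpha rings (Psma) and beta rings (Psmb) and a regulatory particle of ATPases (Psmc) and non-ATPase subunits (Psmd) that binds, unfolds and feeds in substrates. The catalytic sites sit in the beta subunits Psmb5, Psmb6 and Psmb7. Interferon induces the counterparts Psmb8, Psmb9 and Psmb10, which take their places in newly built immunoproteasomes, and the activator subunits Psme1 and Psme2. Dedicated chaperones assemble the particles and leave them when they are complete. In blood-forming tissue, immunoproteasome subunits are known to be present even without infection.

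All arrays had been scaled to the same trimmed mean signal, and correlations between arrays over the tested genes lay between 0.896 and 0.969. Control replicate 5 stood apart: its mean correlation with the other controls was 0.926, and its 3' to middle signal ratio of Gapdh and Actb, a measure of RNA quality, was 5.19 on the log2 scale. That ratio averaged 3.14 ± 0.60 in Mll-deficient arrays and 2.95 ± 1.41 in controls (SD, n = 5 each, two-sided exact permutation p = 0.810). Neither of the probe sets of Kmt2a passed when all probe sets were fitted together. The brighter one read 216 ± 97.2 in Mll-deficient arrays and 260 ± 85.8 in controls (SD, n = 5 each, limma adjusted p = 0.722). Their position relative to the deleted exons was not analysed, which leaves the genotype labels unchecked by these values. Among markers of the sorted fraction, Kit read 72.3 ± 27.0 in Mll-deficient cells and 126 ± 34.2 in controls, and Cd48, absent from the surface of sorted cells, read 124 ± 41.5 and 109 ± 63.1 (SD, n = 5 each). Of 11 tested erythroid genes, 9 rose, and their summed signal lay between 11590.4 and 16885 in Mll-deficient arrays and between 1786.5 and 7194 in controls. The part of erythroid cells in the proteasome differences was not tested, and fewer cells of a type cannot be told apart from less RNA per cell in such samples.

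Several genes that help assemble the proteasome, grouped after their values were seen, were higher in Mll-deficient cells, as were 1 regulatory subunit and 1 activator. Of the 4 interferon-induced subunits 0 passed the test, which for so few genes lies close to the share of all tested genes. Of the 48 tested members, 7 rose and 0 fell at a limma adjusted p under 0.05, in a fit where 5.51% of all 12582 tested genes passed, 3.76% higher and 1.75% lower. The 7 were Psmg3, Psmg4, Psmd5, Psmd9, Psmd12, Psme3 and Psmc3ip. On the log2(signal + 16) scale, 41 of 48 members had a difference above 0, as had 46.6% of all tested genes, and the median was 0.38, against -0.04 for all tested genes. For 9 members every Mll-deficient array lay above every control array, and for 0 below, beside 4.42% and 2.54% of all tested genes. The 9 were Psma7, Psmd11, Psmd12, Psmd14, Psmd5, Psmd9, Psme3, Psmg3 and Psmg4. At an unadjusted p under 0.05, 19 members were higher and 0 lower, beside 10.5% and 10.2% of all tested genes.

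**Figure D1:**
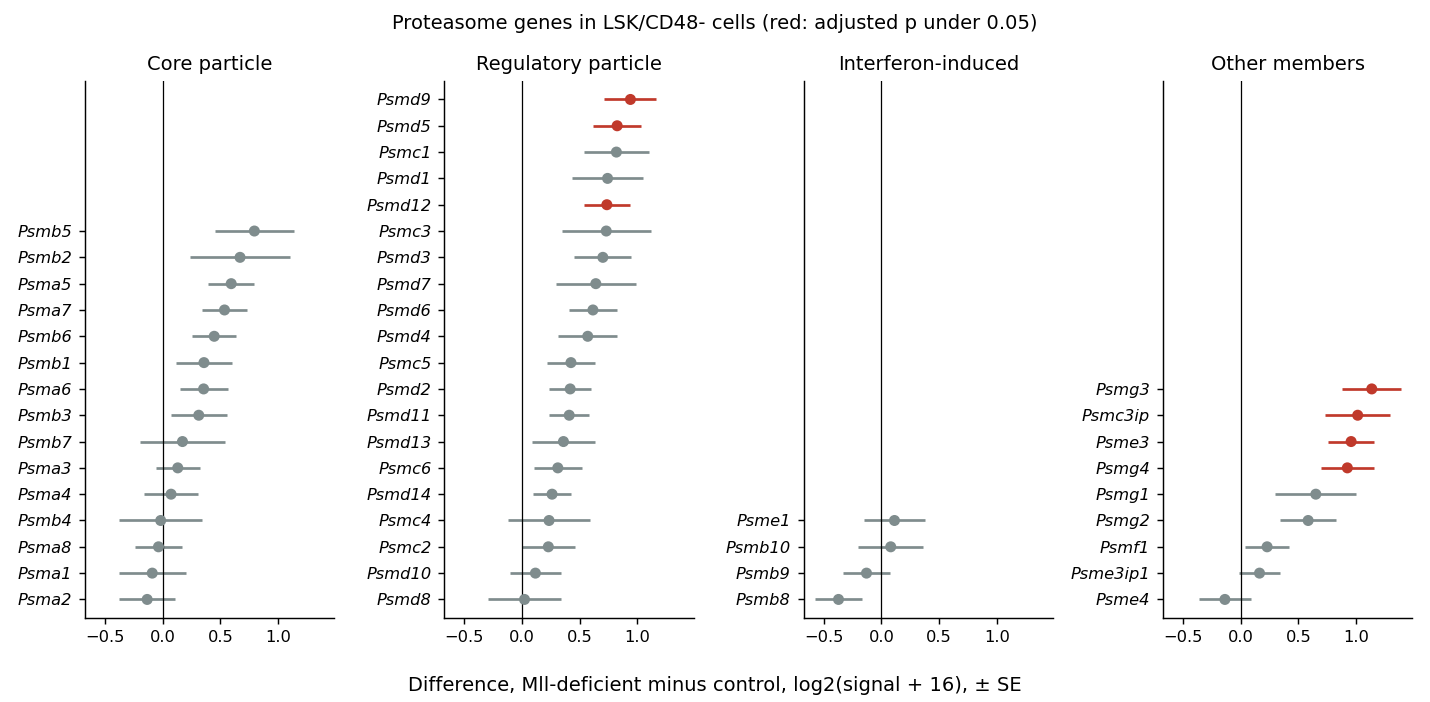
Difference of each tested member, Mll-deficient minus control, on the log2(signal + 16) scale with its standard error, grouped by role and ordered within each group. Red points are the 7 members past the adjusted threshold; all 20 regulatory genes lie above 0 (18 without control replicate 5), and the 4 interferon-induced genes lie between -0.37 and 0.11.

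The number of members called depended on single arrays and on the processing. It was 3, 7, 3, 5 and 3 without Mll-deficient replicates 1 to 5, and 1, 6, 3, 2 and 9 without control replicates 1 to 5, with 0 lower in each of these fits. Over the whole table the same fits called 449, 694, 364, 518 and 317 genes without Mll-deficient replicates 1 to 5, and 365, 754, 391, 374 and 873 without control replicates 1 to 5, so fits with fewer members called mostly called fewer genes in all. It was 4 with the probe sets of each gene averaged and 19 with the RNA quality ratio as a covariate, where 1618 genes passed in all. For the averaged fit the count over all genes is not given here, so its 4 members cannot be set against that share. When all 22277 tested probe sets were fitted together, 567 rose and 302 fell. Of the 38 other tested probe sets of members, 0 were called, which for so few lies close to that share. Of these 38, 27 lay above 0, and the share of all probe sets above 0 is not given here. In that fit the probe sets used for Psmd12 and Psmc3ip missed the threshold (limma adjusted p = 0.0547 and 0.0539).

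Of the 7 calls, 4 fell on assembly chaperones. This grouping of 7 members was made after their values were seen, so its counts describe these data and test nothing. Psmg1 to Psmg4 encode the chaperones that build the alpha ring, and Psmd5, Psmd9 and Psmd10 encode chaperones of the ATPase ring of the regulatory particle, although they carry the names of subunits. Of the 7, 4 rose and 3 did not pass, where 3.76% of all tested genes rose. The median difference of the 7 was 0.82, against -0.04 for all tested genes. Pomp, a maturation factor of the core particle outside the naming rule, was at 0.23 ± 0.32 and did not pass.

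Psmg3 had a signal of 1458, 891, 1248.5, 955 and 1233 in the 5 Mll-deficient arrays, against 344, 757, 587, 675 and 331 in the 5 control arrays. Every Mll-deficient array lay above every control array. The difference was 1.13 ± 0.25 on the log2 scale (SE, 2.19-fold, limma adjusted p = 0.0168), and of the 10 fits with 1 array removed it missed the threshold in 1, that without control replicate 1 (adjusted p = 0.0516). A second, dimmer probe set of Psmg3 was at -0.24 ± 0.24 and did not pass.

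Its partner Psmg4 read 286, 282.5, 357, 314 and 441 in Mll-deficient arrays, against 103, 189.5, 181, 159.6 and 228 in controls. These groups did not overlap either, and the difference was 0.92 ± 0.23 (SE, 1.90-fold, adjusted p = 0.0277). The other alpha ring chaperones did not pass: Psmg1 was at 0.65 ± 0.35 (adjusted p = 0.311) and Psmg2 at 0.58 ± 0.24 (adjusted p = 0.182). A dimmer probe set of Psmg2 was at -0.098 ± 0.26 and did not pass.

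Psmd5, a chaperone that binds an ATPase of the regulatory base, read 864, 584, 772, 529 and 728 in Mll-deficient arrays, against 385, 375, 447, 427 and 286 in controls. The groups did not overlap, with a difference of 0.82 ± 0.21 (SE, 1.77-fold, adjusted p = 0.0290). Psmd9, which escorts another ATPase during base assembly, read 407, 285, 597, 300 and 333 in Mll-deficient arrays, against 196, 216, 196, 169 and 156 in controls. Again no array of one group reached the other, and the difference was 0.94 ± 0.23 (SE, 1.92-fold, adjusted p = 0.0239). Its dimmer probe sets were at 0.36 ± 0.27 and 0.17 ± 0.26 and did not pass. Psmd10, which encodes gankyrin, was at 0.12 ± 0.22 (adjusted p = 0.823).

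The calls of Psmg4, Psmd5 and Psmd9 were each lost in 5 of 10 fits with 1 array removed, with adjusted p up to 0.0832, 0.0759 and 0.0607. Averaging all probe sets of a gene ended the calls of Psmg3 (0.45, adjusted p = 0.127), Psmg4 (0.46, adjusted p = 0.162) and Psmd9 (0.49, adjusted p = 0.101). The only other probe set of Psmg4 lay below the filter, at 6.56 in Mll-deficient arrays and 6.75 in controls. Psmd5 has 1 probe set, so there was none to average. Without control replicate 5, which had the highest 3' to middle ratio, the same 4 chaperones passed, with a median of 0.73 for the 7.

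**Figure D2:**
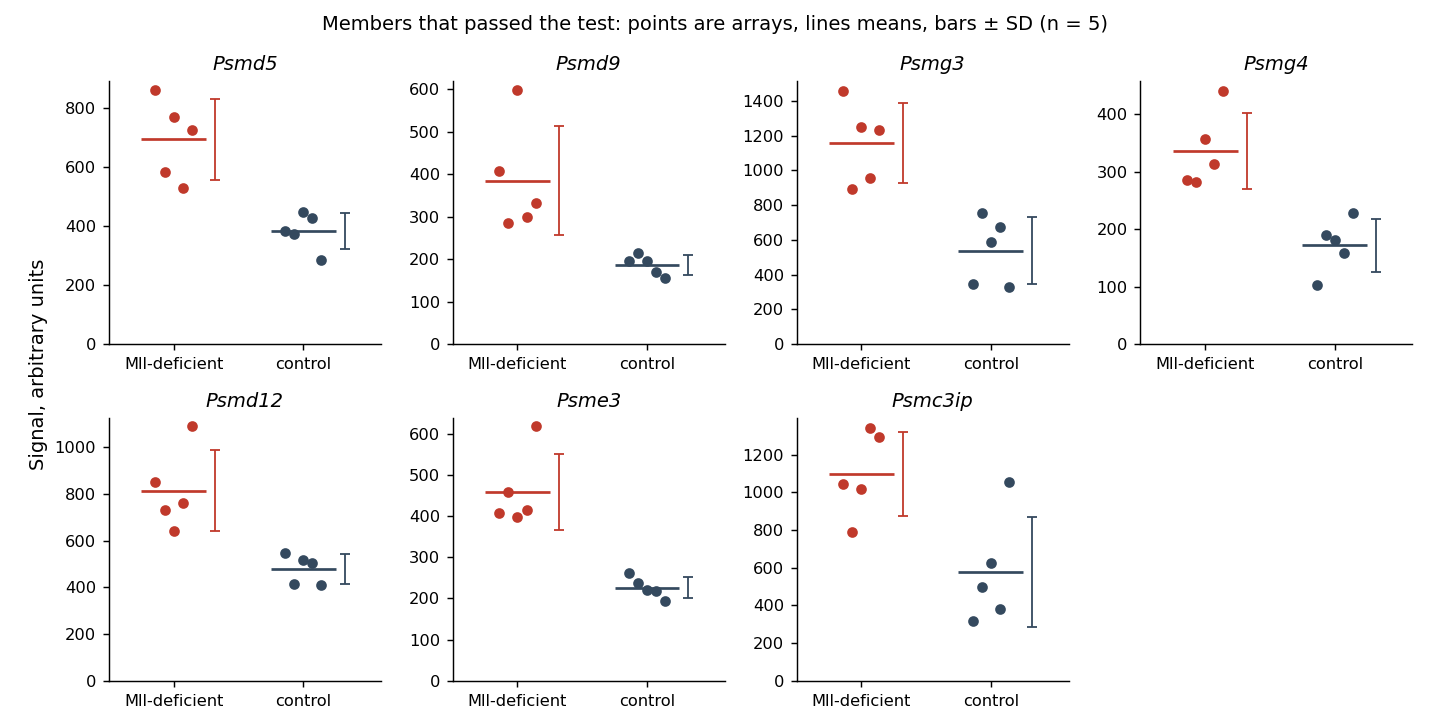
Signal of the 7 members that passed the test, in arbitrary units on a linear axis from 0; each point is 1 array, the line is the mean and the bar the SD of 5 arrays. The groups are separate in 6 of the 7 genes, and in Psmc3ip control replicate 5, at 1052, lies among the Mll-deficient arrays.

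Psme3 had the smallest p of all members. It encodes the subunit of a nuclear activator ring that opens the core particle without ubiquitin or ATP, and unlike its relatives Psme1 and Psme2 it is not known as an interferon-induced gene. Its signal was 407, 458, 397, 415 and 617.5 in Mll-deficient arrays, against 262, 237, 221, 218.5 and 194 in controls. The groups were well apart, with a difference of 0.96 ± 0.20 (SE, 1.94-fold, adjusted p = 0.0116), and the call held in each of the 10 fits with 1 array removed (adjusted p at most 0.0401). The dimmer tested probe set was at 0.47 ± 0.29 and did not pass, and with all probe sets averaged the gene missed the threshold (0.45, adjusted p = 0.134).

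The other activators and inhibitors did not pass. Psme4, which encodes a large monomeric activator, was at -0.14 ± 0.23 (adjusted p = 0.785), and Psmf1, which encodes an inhibitor of the core particle, at 0.23 ± 0.19 (adjusted p = 0.549). Psme3ip1, whose product binds the Psme3 activator, was at 0.16 ± 0.18 (adjusted p = 0.671).

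Psmc3ip matched the naming rule but encodes a partner of meiotic recombination, not a proteasome subunit. It read 1043, 791, 1015, 1342 and 1292 in Mll-deficient arrays, against 317, 498, 628, 381 and 1052 in controls. Here the groups overlapped through control replicate 5, and the difference was 1.01 ± 0.28 (SE, 2.02-fold, adjusted p = 0.0456). The call was lost in 8 of 10 fits with 1 array removed. On all 10 arrays it was lost with offset 1, quantile normalization, no intensity filter or no variance trend. Without Psmc3ip, the members called were 6 genes of the proteasome system.

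All 20 genes named as regulatory subunits lay above 0, with a median difference of 0.50, but 18 of 20 did so without control replicate 5, where Psmd8 was at -0.28 and Psmd10 at -0.015. Of them 3 rose (Psmd5, Psmd9 and Psmd12) and 17 did not pass, where 3.76% of all tested genes rose. Psmd5 and Psmd9 are chaperones already counted above. Without the chaperones, 0 of 6 ATPases and 1 of 11 non-ATPase subunits rose, too few to set apart from that share. Psmd12, a subunit of the lid of the regulatory particle, read 851, 730, 639, 759 and 1091 in Mll-deficient arrays, against 546, 413, 518.5, 503 and 409.7 in controls. The groups did not overlap, with a difference of 0.73 ± 0.20 (SE, 1.66-fold, adjusted p = 0.0419). This was a narrow call, lost in 9 of 10 fits with 1 array removed, among them the fit without control replicate 5 (0.68, adjusted p = 0.0525).

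The 6 ATPases that form the unfolding ring lay between 0.23 (Psmc2) and 0.82 (Psmc1), and 0 passed in limma, with 1 at an unadjusted p under 0.05. That gene, Psmc1, differed by 0.82 ± 0.28 (adjusted p = 0.109). Of the 11 non-ATPase subunits that are not chaperones, Psmd12 passed, and a further 6 had an unadjusted p under 0.05. They were the scaffold subunits Psmd1 (0.74 ± 0.30, adjusted p = 0.173) and Psmd2 (0.42 ± 0.18, adjusted p = 0.198), the ubiquitin receptor Psmd4 (0.57 ± 0.25, adjusted p = 0.211), and the lid subunits Psmd3 (0.70 ± 0.25, adjusted p = 0.113), Psmd6 (0.61 ± 0.21, adjusted p = 0.101) and Psmd11 (0.41 ± 0.17, adjusted p = 0.181). Psmd4 was at 0.33 without control replicate 5 and at 0.19 with its probe sets averaged. Among the alternatives on all 10 arrays, Psmd2 went as low as 0.0099 (limma adjusted p up to 0.984) and Psmd11 as low as 0.24.

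Psmd14, the deubiquitinase of the lid, had separate groups with a small difference. Its signal was 5458, 4872, 4478, 4606 and 5621 in Mll-deficient arrays, against 4132, 4232, 4452, 4319.8 and 3712 in controls. The arrays did not overlap, yet the difference of 0.26 ± 0.17 (adjusted p = 0.409) did not pass. The lowest difference among the regulatory genes was that of Psmd8, at 0.02 ± 0.32, which lay below 0 without control replicate 5.

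Among the constitutive core subunits 0 of 15 tested genes passed in limma, where 5.51% of all tested genes did. Of the 15, 4 had an unadjusted p under 0.05, all higher in Mll-deficient cells, beside 10.5% of all tested genes. The median was 0.31, and the differences ran from -0.13 (Psma2) to 0.79 (Psmb5), with 11 above 0. The 4 were the alpha subunits Psma5 (0.59 ± 0.20, adjusted p = 0.0936) and Psma7 (0.54 ± 0.19, adjusted p = 0.122) and the catalytic subunits Psmb5 and Psmb6. Psma5 passed under quantile normalization, median centring, array weights and the RNA quality covariate, and without Mll-deficient replicate 2 or control replicate 5. In these alternatives 1 core subunit was called, except with the covariate, where 4 were. The alpha ring had a median of 0.10 and the constitutive beta ring of 0.36, and without control replicate 5 these were 0.090 and 0.22.

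Core subunits known for restricted expression were dim. Psmb11, the beta subunit of the thymus cortex, averaged 8.57 ± 5.54 in Mll-deficient arrays and 8.01 ± 5.01 in controls (SD, n = 5 each) and fell below the filter, which lay at a signal of 12.2. Psma8, the alpha subunit of the testis, averaged 35.9 ± 6.01 in Mll-deficient arrays and 37.3 ± 6.92 in controls (SD, n = 5 each).

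The array means were highest above controls for regulatory genes among these 3 groups. The mean log2 level of the 20 regulatory genes was 10.00 ± 0.11 in Mll-deficient arrays and 9.50 ± 0.19 in controls, and that of the 15 core genes was 10.51 ± 0.15 and 10.23 ± 0.15 (SD, n = 5 each). For the 4 interferon-induced genes it was 10.60 ± 0.37 in Mll-deficient arrays and 10.67 ± 0.33 in controls. Over all tested genes it was 7.55 ± 0.02 and 7.57 ± 0.01. Control replicate 5 was the lowest array for 27 of the 48 tested members. Without it the medians were 0.42 for regulatory, 0.20 for core and -0.17 for interferon-induced genes, 9 members passed, 36 of 48 lay above 0, and 6 of the 7 calls remained. In that fit 554 of all 12582 tested genes rose (4.4%), 319 fell and 6083 lay above 0. The part of RNA quality in these differences was not tested beyond the covariate fit.

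**Figure D3:**
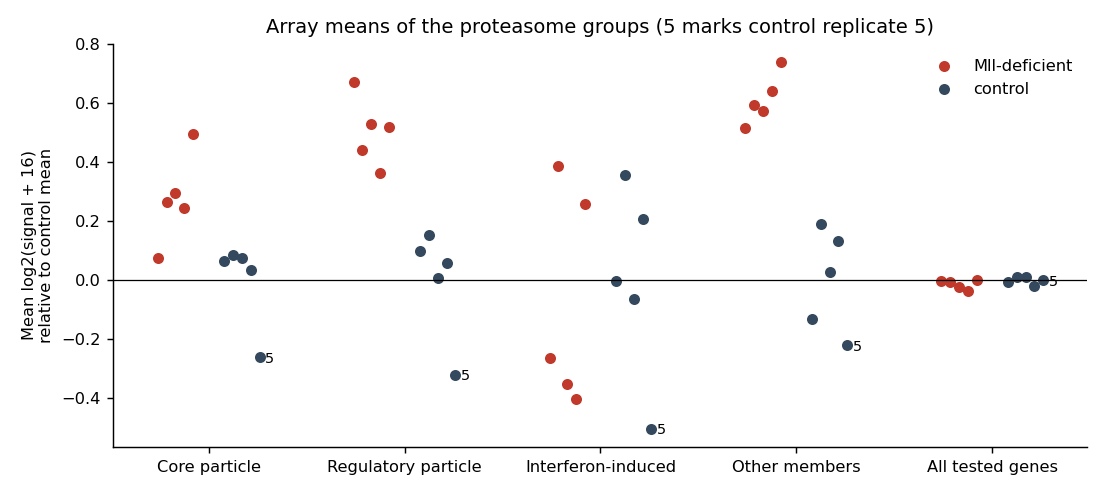
Mean log2(signal + 16) of each member group on each array, relative to the control mean of that group; points are arrays and the digit 5 marks control replicate 5. Regulatory genes and the other members lie higher on every Mll-deficient array than on every control array, core genes overlap narrowly, and interferon-induced genes overlap widely.

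None of the 4 measured interferon-induced subunits passed in limma (0 also had an unadjusted p under 0.05), and their median difference was -0.02. For 4 genes, 0 calls lies close to the 5.51% of all tested genes that passed. Psme2 was not analysed here, since its probe set also names Psme2b, which leaves 4 of the 5 interferon-induced subunits. Psmb8, the counterpart of Psmb5, read 1784, 2974, 1517.5, 2301 and 2708.5 in Mll-deficient arrays, against 3039, 2737, 2841, 2857 and 2722 in controls. The controls lay close together and 4 of the 5 Mll-deficient arrays lay below all of them, for a difference of -0.37 ± 0.20 (SE, adjusted p = 0.324). The second probe set of Psmb8 gave the same difference, -0.37 ± 0.28.

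Psmb9, the counterpart of Psmb6, read 1611, 2242.5, 1651, 1475 and 2339 in Mll-deficient arrays, against 2137, 2455, 1922, 2184 and 1469 in controls. The groups overlapped throughout, with a difference of -0.13 ± 0.21 (adjusted p = 0.778). Psmb10, the counterpart of Psmb7, read 795, 1479.9, 804, 685 and 1190.2 in Mll-deficient arrays, against 797, 1487, 761, 1184 and 543 in controls. Here too the ranges coincided (0.08 ± 0.28, adjusted p = 0.911).

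Psme1, a subunit of the interferon-induced activator ring, read 1412, 2025, 1255, 936.5 and 1844 in Mll-deficient arrays, against 1306, 1862, 1354, 1647 and 768 in controls. The spread within each group was wide, and the difference was 0.11 ± 0.26 (adjusted p = 0.856). The differences of Psmb10 and Psme1 lay below 0 without control replicate 5, at -0.097 and -0.082.

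None of the constitutive catalytic subunits passed in the limma fit reported, and Psmb5 and Psmb6 had an unadjusted p under 0.05. Psmb5, the chymotrypsin-like subunit, read 1329.9, 1555, 1484, 814 and 1159.7 in Mll-deficient arrays, against 851, 1383, 544, 1002 and 269 in controls. Control replicate 5 gave the lowest value, and the difference was 0.79 ± 0.34 (SE, adjusted p = 0.195), or 0.46 without that array. With the RNA quality ratio as a covariate Psmb5 passed (limma adjusted p = 0.00332). Psmb6, the caspase-like subunit, read 5134, 5156, 5816.5, 4577 and 5977 in Mll-deficient arrays, against 3248, 4263, 4577.5, 4702.5 and 2989.9 in controls. Only Mll-deficient replicate 4 lay within the control range, and the difference was 0.45 ± 0.19 (adjusted p = 0.186). Psmb7, the trypsin-like subunit, read 90.4, 243, 119, 165 and 180.0 in Mll-deficient arrays, against 308, 205, 61.9, 137.5 and 69.0 in controls, with wide overlap (0.17 ± 0.36, adjusted p = 0.842).

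**Figure D4:**
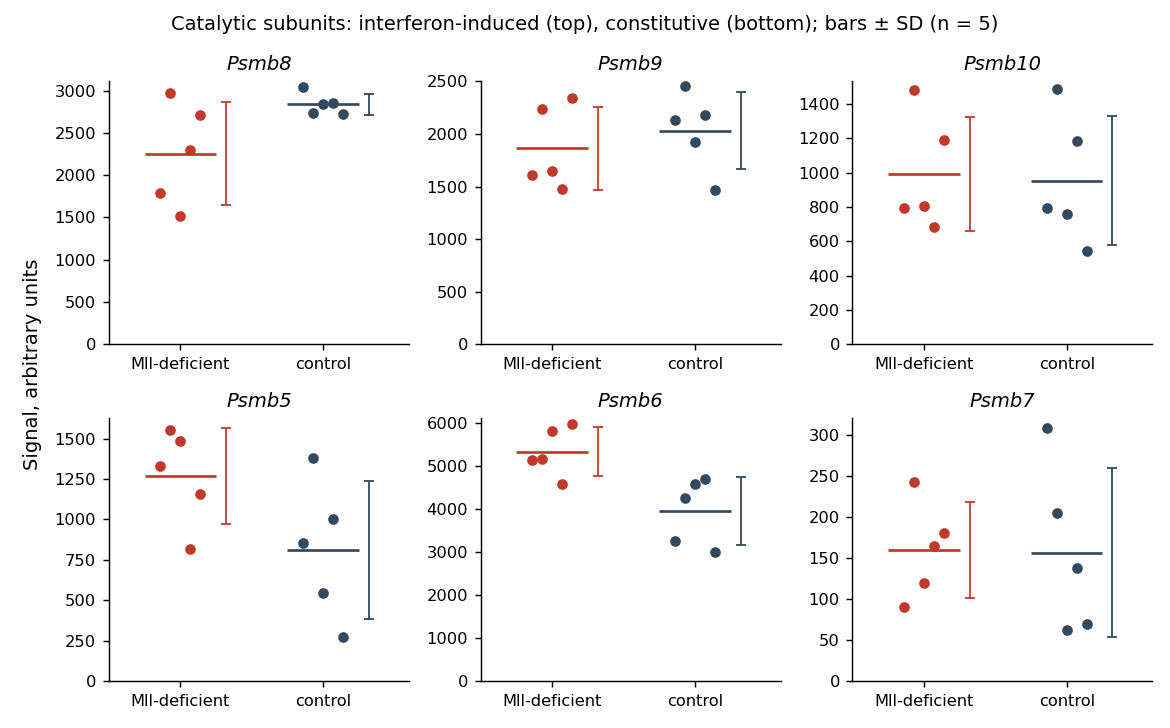
Signal of the interferon-induced catalytic subunits (top row) and of the constitutive subunit that each replaces (bottom row), in arbitrary units from 0; points are arrays, lines means and bars the SD of 5 arrays. Control arrays of Psmb8 lie between 2722 and 3039, Mll-deficient arrays of Psmb6 lie between 4577 and 5977, and the remaining genes overlap more widely.

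The balance within each pair was compared as the difference of the 2 log2 values on each array, with a two-sided exact permutation test over 252 assignments and adjustment over the 3 pairs. A difference between probe sets is no ratio of abundances, so only its change between the groups is of use. Psmb8 minus Psmb5 averaged 0.81 ± 0.59 in Mll-deficient arrays and 1.98 ± 0.87 in controls (SD, n = 5 each), a change of -1.17 (exact permutation p = 0.0317, adjusted p = 0.0476). Psmb9 minus Psmb6 averaged -1.53 ± 0.25 in Mll-deficient arrays and -0.95 ± 0.26 in controls (SD, n = 5 each), a change of -0.58 (exact permutation p = 0.0159, adjusted p = 0.0476). Psmb10 minus Psmb7 averaged 2.53 ± 0.36 in Mll-deficient arrays and 2.62 ± 0.76 in controls (SD, n = 5 each), a change of -0.09 (exact permutation p = 0.810, adjusted p = 0.810).

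The interferon-induced member of the pair was lower relative to its constitutive counterpart for the first and the second pair, both narrowly. More of each change lay in the constitutive member, with Psmb5 at 0.79 and Psmb6 at 0.45. Psmb8 was at -0.37 and Psmb9 at -0.13, and none of these genes passed in the limma fit reported. Without control replicate 5, the changes were -0.85 (exact permutation, adjusted p = 0.107) and -0.59 (adjusted p = 0.0714). Of the 10 sets with 1 array removed, the first change was called in 2 and the second in 4.

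Promoter windows from RefSeq (GRCm38.p6), covering 250 bases before to 50 bases after each transcription start, were held for 41 of the 49 members. They were searched on both strands for 3 motifs, and none of the printed matches overlap. The core of the antioxidant response element, TGACNNNGC, bound by the Nfe2l1 and Nfe2l2 factors that drive proteasome genes, was found for 6 of 41 members (14.6%), beside 14% of all 27025 genes with a window. The interferon-stimulated element (GAAA, any 2 bases, GAAA) was found for 5 members (12.2%), beside 3.99% of all genes, and the gamma-activated site TTCNNNGAA for 3 members (7.32%), beside 9.55%. Of the 7 members that rose, 2 held the antioxidant core (Psmd9 and Psmd12) and 2 the interferon-stimulated element (Psmd9 and Psmg4). The matches before the start in members that rose, in the constitutive catalytic subunits and in the interferon-induced subunits are shown with their flanks, 5′ to 3′ on the gene's strand, with the motif in capitals (in Psmd12 on the opposite strand). The first 4 hold the antioxidant core, the fifth the interferon-stimulated element and the last the gamma-activated site.
Psmb5 (chr14:54618024-54618052, minus strand): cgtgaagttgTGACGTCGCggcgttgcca
Psmb6 (chr11:70525338-70525356, plus strand): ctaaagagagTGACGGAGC
Psmd9 (chr5:123228149-123228177, plus strand): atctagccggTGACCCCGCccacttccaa
Psmd12 (chr11:107479278-107479299, plus strand): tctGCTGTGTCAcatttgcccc
Psmd9 (chr5:123228021-123228050, plus strand): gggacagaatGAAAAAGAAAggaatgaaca
Psmb8 (chr17:34198088-34198116, plus strand): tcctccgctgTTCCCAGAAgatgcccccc
Of the constitutive catalytic subunits, Psmb5 and Psmb6 held an antioxidant core before the start. Among the interferon-induced genes Psmb8 held a gamma-activated site and Psme1 an interferon-stimulated element. A match shows only that these letters are present.

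Partner genes of the proteasome did not pass, in any of 4 short lists, where 5.51% of all tested genes passed. Of 11 tested partners and assembly factors, 0 passed in limma, the median was -0.03, and 1 had an unadjusted p under 0.05. That gene was Zfand5, a ubiquitin-binding activator of the proteasome, at -0.58 ± 0.25 (adjusted p = 0.200). Pomp, the maturation factor of the core particle, was at 0.23 ± 0.32 (adjusted p = 0.738). Of 10 tested ubiquitin-activating and shuttle genes, 0 passed, the median was 0.31 (0.14 without control replicate 5) and 2 had an unadjusted p under 0.05, both higher. The smallest p was that of Vcp, the segregase that extracts ubiquitinated proteins, at 0.81 ± 0.27 (adjusted p = 0.0957).

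Of 6 genes that control transcription of the proteasome, 0 passed, and 1 had an unadjusted p under 0.05. This was Ngly1, whose deglycosylation of Nfe2l1 activates that factor, at -0.81 ± 0.33 (adjusted p = 0.175). Nfe2l1 itself was at 0.19 ± 0.20 (adjusted p = 0.648). Of 9 genes of interferon-controlled peptide processing, 0 passed and 0 had an unadjusted p under 0.05, with a median of -0.14 and 8 below 0 (without control replicate 5, -0.35 and 9). The interferon-responsive factor Irf1 had the smallest p, at -0.39 ± 0.20 (adjusted p = 0.291), and Tap1, which shares its locus with Psmb9, was at 0.10 ± 0.24 (adjusted p = 0.857).

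Markers of further cell types were read on the same arrays. Of 13 granulocyte and monocyte genes 0 passed (3 higher and 2 lower at an unadjusted p under 0.05), and their summed signal lay between 114690.5 and 185854 in Mll-deficient arrays and between 103065 and 167480.0 in controls. Of 8 tested lymphoid genes 4 lay above and 4 below 0. Il7r fell and was the 1 gene lower at an unadjusted p under 0.05, and Nkg7 was the 1 higher, at 0.96 ± 0.28 (adjusted p = 0.0583). The T cell genes Cd3e and Cd3g lay below the filter. Of 5 tested dendritic cell and macrophage genes, 0 passed in limma and 0 had an unadjusted p under 0.05. Of 6 megakaryocyte genes 0 passed, but all 6 lay below 0, with a median of -0.48. Among them 2, Vwf and Gp1bb, were lower at an unadjusted p under 0.05. Of 5 tested markers of the sorted fraction, 0 passed and 3 were lower at an unadjusted p under 0.05. The part of these cell types in the proteasome differences was not tested.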

How the data were processed

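The deposited table holds linear signal intensity values for 45101 probe sets on 10 arrays, with MAS5 5.0 named in the submitters' processing notes, and the genome build is not given in the sources used here. On each array the mean after trimming 2% at each end was 150, so the authors' values had been scaled to a constant, which removes differences in total RNA. The labels name the arrays biological replicates, and each was taken as a separate mouse. For arrays, their number limits the precision.

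Probe sets were named from the platform annotation, with symbols updated through RefSeq (GRCm38.p6). Of the probe sets, 34945 had 1 symbol (64 control probe sets left out), 932 had several and 9224 were unnamed or controls. Of the single symbols, 34741 were found in RefSeq. Values were taken as log2(signal + 16), which understates changes of dim genes. Each gene was represented by its brightest probe set, and the 12582 genes whose mean exceeded the 40th percentile over probe sets were tested. The test was two-sided, from limma 3.58.1 (lmFit, then eBayes with trend) under R 4.3.3, adjusted by Benjamini-Hochberg over all tested genes with a threshold of 0.05. Differences are Mll-deficient minus control. Folds come from these differences, so they are ratios of signal + 16 and not of signal. Other probe sets were tested in a fit over 22277 probe sets. Adjusted p for genes come from limma. On simulated data for this comparison with 12582 genes, 2, 26, 49 and 50 of 50 genes changed by 0.5, 1, 2 and 3 on the log2 scale were recovered. The simulated errors were independent between genes, and fewer genes were changed than were called in the data. Recovery in the data themselves can therefore differ.

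The members, lists and tests were chosen with earlier results of these data known. Given with every value were the members past the threshold, the interferon-induced subunits and the 3 catalytic subunits they replace. Members with an unadjusted p under 0.05 and the gene of smallest p of each partner list were named. Psmd14, Psmb11, Psma8, Psmd10, Psmc2, Psmf1, Psme3ip1, Psmg1, Pomp, Nfe2l1 and Tap1 were added after their values were seen. Alternatives covered the offset (1 and 64), quantile normalization, median centring, no filter or the 60th percentile, averaged probe sets, a variance prior without trend, a replicate block, array weights, the RNA quality ratio as a covariate and leaving out each array. Samples with the same replicate number did not deviate together (correlations between -0.23 and 0.28).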

Additional observations from a re-analysis of the deposited data

Results flagged for a closer look

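Within a group of 5 arrays, 5 of 96 screened sets of values (48 tested members in each group) held 1 array far from the rest, and chance flags about 1 in 20. Control replicate 5 was low for Psmb1, a beta ring subunit (440.7), and for the ubiquitin receptor Psmd4 (874), and high for the ATPase Psmc2 (17050). Mll-deficient replicate 2 was low for the alpha subunit Psma5 (3646), and Mll-deficient replicate 1 was low for the beta subunit Psmb4 (1903).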

How the results depend on the processing

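With the RNA quality covariate, 1618 genes passed over the whole table (693 in the fit reported), with 19 members, 4 core and 9 regulatory genes among them. Averaging all probe sets gave 4 members and 1 of the other members. Quantile normalization, median centring and array weights each gave 1 core subunit, and array weights gave 5 regulatory genes. For the averaged, normalized, centred, weighted and block fits the count over all genes is not given here. Their member counts therefore cannot be set against that share. The replicate block gave 1 regulatory gene, and under it the Psmb8 to Psmb5 and Psmb9 to Psmb6 changes of -1.17 and -0.58 could not pass, since the smallest exact permutation p of 5 pairs is 0.0625 (adjusted p = 0.0938 for both). The block ended the calls of Psmd5 and Psmd12. Averaged probe sets left the Psmb8 to Psmb5 change at -1.17 (exact permutation, adjusted p = 0.0952). Over the fits with 1 array removed, between 317 and 873 genes, 1 and 9 members, 0 and 1 core, 0 and 4 regulatory and 1 and 4 other members passed, and 0 interferon-induced genes in each. The paired changes then ranged from -1.42 to -0.85 for Psmb8 to Psmb5, from -0.66 to -0.49 for Psmb9 to Psmb6 and from -0.41 to 0.084 for Psmb10 to Psmb7. Array weights turned Psmb10 to -0.023 and Psme1 to -0.012, and without single arrays Psmb10, Psme1 and Psmb7 ranged from -0.097 to 0.26, from -0.082 to 0.27 and from -0.062 to 0.45. The cause of these shifts was not tested. The medians of core, regulatory and interferon-induced genes moved by less than the spread between arrays in all alternatives run, between 0.20 and 0.40, 0.40 and 0.56, and -0.17 and 0.09. Members dimmer than the filter, here Psmb11, were not tested.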
